A study of Mus musculus with 25 samples.

Results

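The loops described here are 1299 pairs of 1 kb genome bins that were listed in both libraries of an Il2ra intron deletion and in none of the 4 libraries of an upstream deletion or of wild type (WT). They were chosen from the listings themselves, matched exactly on both bins, out of 121571 loops listed in any of the 6 libraries. A loop is here a deposited pair of bins with at least 20 contacts, a contact being a read pair that joins the bins. A pair that is not listed lies below that limit in the library and was not treated as 0. The choice used the listing in all 6 libraries, so the contacts and the anchor coverage of these loops between genotypes are given as a description, without a test.

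The libraries were made by HiChIP for H3K27ac, a method that joins DNA ends lying close together in the nucleus and then enriches fragments carrying this mark of active chromatin. The cells were splenic CD8+ T cells of C57BL/6J mice, activated for 2 days and rested for 4 h. The groups were the intron deletion with IL-2 and with control treatment, the upstream deletion with IL-2 and with control treatment, and WT with IL-2 and with control treatment, with 1 library in each and no second library of any. Both mutants are CRISPR deletions in the super-enhancer of Il2ra, the gene of the high-affinity chain of the IL-2 receptor. No source used here gives the coordinates of the deletions, the number of animals, or the dose and length of IL-2. The labels describe the IL-2 cells as pre-activated and treated, and the control cells as pre-activated and not treated.

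H3K27ac marks active promoters and enhancers, and HiChIP for it gives contacts between such elements. A pair of bins gathers more of these read pairs when its ends carry more of the mark and also when the ends meet more often, and a single count does not separate these. In CD8+ T cells the longest stretches of the mark lie at genes of T cell identity, such as Cd8a, Tcf7 and Bcl11b. In bulk samples, fewer cells with the mark and less of the mark per cell cannot be told apart.

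Promoter sequences were available for 176 promoters that lie in anchors of these loops, from RefSeq on GRCm38.p6, the build of the files. The first set shows paired promoters joined by a loop of the intron deletion whose sequences repeat each other. Each runs 5′ to 3′ on the strand of its gene from 250 bases before to 50 after the start, and capitals mark bases in words of 20 that the other promoter of the pair also holds.
Mfap1b (chr2:121473974-121474273, minus strand): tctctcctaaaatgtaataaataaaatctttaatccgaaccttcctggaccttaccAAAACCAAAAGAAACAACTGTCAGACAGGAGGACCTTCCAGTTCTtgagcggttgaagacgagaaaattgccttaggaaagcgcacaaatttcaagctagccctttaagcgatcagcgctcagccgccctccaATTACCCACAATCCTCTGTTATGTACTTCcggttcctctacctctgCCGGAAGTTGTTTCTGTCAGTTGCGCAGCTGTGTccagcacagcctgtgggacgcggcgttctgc
Mfap1a (chr2:121506607-121506906, minus strand): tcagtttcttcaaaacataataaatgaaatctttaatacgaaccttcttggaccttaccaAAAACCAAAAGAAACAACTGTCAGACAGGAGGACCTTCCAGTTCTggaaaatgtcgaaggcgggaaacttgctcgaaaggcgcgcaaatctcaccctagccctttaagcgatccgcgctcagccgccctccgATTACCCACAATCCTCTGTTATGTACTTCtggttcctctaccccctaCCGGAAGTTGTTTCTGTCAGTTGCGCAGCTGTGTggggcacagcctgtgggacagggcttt
Ifi206 (chr1:173491269-173491568, minus strand): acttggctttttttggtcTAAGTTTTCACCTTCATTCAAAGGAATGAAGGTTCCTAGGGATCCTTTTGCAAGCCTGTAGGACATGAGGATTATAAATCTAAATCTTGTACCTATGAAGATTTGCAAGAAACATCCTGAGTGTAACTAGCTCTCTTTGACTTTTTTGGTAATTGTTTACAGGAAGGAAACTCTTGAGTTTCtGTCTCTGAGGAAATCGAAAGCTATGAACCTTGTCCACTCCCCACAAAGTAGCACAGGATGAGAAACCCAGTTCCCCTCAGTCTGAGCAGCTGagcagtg
Ifi208 (chr1:173673415-173673714, plus strand): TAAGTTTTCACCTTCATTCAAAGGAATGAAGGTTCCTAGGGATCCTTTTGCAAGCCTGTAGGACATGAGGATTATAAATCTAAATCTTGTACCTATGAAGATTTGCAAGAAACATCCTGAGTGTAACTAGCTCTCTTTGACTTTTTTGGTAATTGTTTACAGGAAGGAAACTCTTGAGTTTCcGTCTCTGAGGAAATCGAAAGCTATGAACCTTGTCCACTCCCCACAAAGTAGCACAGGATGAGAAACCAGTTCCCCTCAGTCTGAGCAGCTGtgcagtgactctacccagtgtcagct
The promoters of Mfap1b and Mfap1a, copies of a gene for a spliceosome protein, were identical at 260 of 299 aligned positions (87.0%). Those of Ifi206 and Ifi208, interferon-inducible genes of the PYHIN family, were identical at 279 of 282 aligned positions (98.9%). The second set shows promoters at loci where member loops gathered, and its capitals mark matches, on either strand, to GGGCGG (the core of KLF and SP sites) or CCGGAA (the core of ETS sites).
Il6st (chr13:112463820-112464119, plus strand): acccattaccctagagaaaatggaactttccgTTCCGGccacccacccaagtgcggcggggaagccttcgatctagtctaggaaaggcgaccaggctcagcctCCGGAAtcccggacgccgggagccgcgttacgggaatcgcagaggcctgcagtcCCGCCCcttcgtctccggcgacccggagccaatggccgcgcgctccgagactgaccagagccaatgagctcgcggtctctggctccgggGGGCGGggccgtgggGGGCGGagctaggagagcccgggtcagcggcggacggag
Tcf7 (chr11:52282546-52282845, minus strand): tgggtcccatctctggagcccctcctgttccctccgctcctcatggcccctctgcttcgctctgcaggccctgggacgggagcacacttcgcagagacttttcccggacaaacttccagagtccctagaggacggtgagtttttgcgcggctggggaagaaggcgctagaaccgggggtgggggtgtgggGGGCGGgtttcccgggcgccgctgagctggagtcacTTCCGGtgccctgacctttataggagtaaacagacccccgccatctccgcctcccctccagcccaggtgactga
Arl4c (chr1:88702142-88702441, minus strand): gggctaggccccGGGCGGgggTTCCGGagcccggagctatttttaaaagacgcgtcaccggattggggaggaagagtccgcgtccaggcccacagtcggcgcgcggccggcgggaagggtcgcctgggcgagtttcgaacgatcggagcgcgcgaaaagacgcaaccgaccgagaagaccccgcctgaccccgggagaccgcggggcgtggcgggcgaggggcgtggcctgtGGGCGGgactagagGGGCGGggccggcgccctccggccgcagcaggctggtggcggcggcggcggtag
The Il6st promoter held 3 matches to GGGCGG and 2 to CCGGAA, the Tcf7 promoter 1 of each, and the Arl4c promoter 3 and 1. Of the 176 promoters in member anchors, 56.8% held GGGCGG and 29.5% held CCGGAA. The shares were 63.8% and 29.7% among 3894 promoters at anchors of any loop listed in both intron-deletion libraries, and 35.7% and 14.9% among all 32851 promoters of the table. The remaining motifs searched on both strands were TGTGGT (RUNX), TTCNNNGAA (STAT), CACGTG (E-box) and TGANTCA (AP-1), and matches of different motifs may share bases. Member promoters held them in 16.5%, 9.09%, 7.95% and 9.09% of cases, against 13.2%, 6.93%, 10.5% and 4.67% at anchors of any loop of both intron-deletion libraries and 16.8%, 8.30%, 7.15% and 7.81% over all promoters. The promoters shown for Il6st, Tcf7 and Arl4c held none of these 4. These matches are letters in a window, not sites.

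The libraries differed in length. With IL-2 and with control treatment the intron deletion listed 72743 and 38879 loops, the upstream deletion 61168 and 56113, and WT 94922 and 72698, with sums of 1314137 to 3596995 contacts. The shortest table was thus the intron-deletion control and the longest WT with IL-2. Contacts and coverage were divided by a library factor (TMM over features listed in all 6 libraries), and after this scaling the highest unlisted count of 19 corresponds to 17.2 and 24.4 contacts in intron-deletion cells, 19.7 and 20.5 in upstream-deletion cells, and 15.5 and 17.9 in WT cells, for IL-2 and control. The limit was thus lowest in WT with IL-2 and highest in the intron-deletion control. The tables were nearly complete for strong pairs. Of pairs listed in the 5 other libraries with both anchors listed and at least 40 contacts predicted, 99.6% to 99.9% were listed in each library. Pairs between 20 and 40 contacts, where most members lie, were not checked in this way. Markers of T cells (6 of 6) and of CD8+ T cells (3 of 3) were at listed anchors in all 6 libraries. Of markers of other cells, the regulatory T cell gene Ikzf2, the B cell gene Cd79a and the myeloid genes Cd68, Spi1 and Tyrobp were listed in all 6. None of the 3 CD4+ T cell, 3 NK cell and 4 erythroid markers was listed in all 6. Some were listed in fewer, the CD4+ T cell genes Cd4 in 5 and Zbtb7b in 4, and the NK cell gene Klrb1c in 3. The erythroid gene Klf1 was listed in 3, at 1076 reads in the upstream deletion with IL-2, and 1178 and 1176 in WT (IL-2 and control). Some of the markers listed in all 6 libraries moved with genotype in scaled coverage (IL-2 and control). Cd79a stood at 1883 and 1851 reads in intron-deletion cells, 1244 and 1456 in upstream-deletion cells, and 1073 and 1236 in WT cells. Spi1 stood at 1148 and 1115, 977 and 934, and 818 and 844 in the same order, and Tyrobp at 1085 and 988, 893 and 867, and 802 and 767. Cd68 was lower in intron-deletion cells, at 308 and 336, 379 and 382, and 392 and 427. The part of other cells in the results was not tested.

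The member loops were 3.51% of the 36958 loops listed in both intron-deletion libraries. The same rule turned to the other genotypes gave 231 loops listed only in the upstream deletion, which is 0.534% of 43271, and 5202 listed only in WT, which is 8.36% of 62229. Table length and genotype cannot be told apart in these counts, with 1 library per group. With each table shortened to its 38879 loops with the most contacts, the number was 2458 in the intron deletion, 602 in the upstream deletion and 826 in WT. The order of the intron deletion and WT thus turned with the length of the tables, and 653 of the 1299 members were also in the shortened set.

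Most members lay just above the limit. In the intron deletion with IL-2 they held 20 to 155 contacts with a median of 28 (quartiles 24 and 36), and in its control library 20 to 115 with a median of 23 (quartiles 21 and 26). All loops listed in both libraries had medians of 41 and 28. Of the members, 211 reached 40 contacts with IL-2 and 24 did in the control. In the control library 251 members held exactly 20 contacts, and 18 held exactly 20 in both. Just outside the rule lay pairs that both intron-deletion libraries and 1 further library listed. They numbered 130 with the upstream deletion with IL-2, 298 with its control, 516 with WT with IL-2 and 325 with the WT control, at medians of 22, 22, 24 and 22 contacts in that library. The highest count among them in that library was 44, 42, 43 and 39 contacts in the same order.

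**Figure D1:**
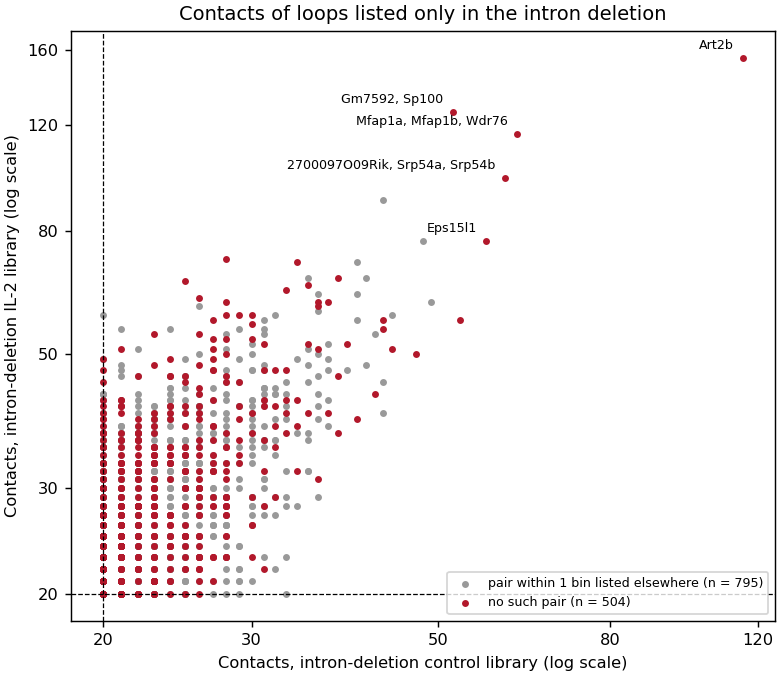
Contacts of each of the 1299 member loops in the intron-deletion control library (x axis) and IL-2 library (y axis), both on log scales, with dashed lines at the listing minimum of 20. Most points lie below 40 on both axes, and the 5 loops with the most scaled contacts are named by the genes at their anchors.

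Members need not be far from loops of the other genotypes. For 795 of the 1299, a pair within 1 bin at both ends was listed in at least 1 other library, and for 360 of these in all 4. For 504 no such pair was listed. Both anchors were themselves listed in all 4 other libraries for 534 members, and in none for 346. Where both anchors were listed in a library, the contacts the member had in the intron deletion were at the median 1.40 and 1.34 times the limit of the upstream deletion (635 and 769 members, IL-2 and control) and 1.78 and 1.54 times that of WT (804 and 791 members). The gap that the listing alone shows is thus modest for most members.

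Member loops spanned a median of 13 kb, against 12 kb for all loops of both intron-deletion libraries and 19 kb for loops listed only in WT. Loops of 100 kb or more made up 3.77% of members (49 loops) and 2.60% of all loops of both intron-deletion libraries. The longest joined the gene body of Bcl11b, which encodes a zinc-finger factor that T cell development requires, to a bin 875 kb away, with 31 contacts with IL-2 and 21 in the control. Several distal members met at chr19:37375001-37376000, a bin in no gene, from bins 449 to 456 kb away. These held 55 and 43 contacts from the end of Btaf1, an ATPase that acts on the TATA-binding protein, 58 and 29 from the end of Fgfbp3, and 47 and 27 from a bin between them (IL-2 and control). The gene Jun, an AP-1 subunit, had members 249 and 251 kb long, each with a near pair listed in all 4 other libraries.

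Anchors of the members carried more signal in the intron deletion than in the other genotypes. The 1299 members had 1699 anchor bins, of which 973 anchored a listed loop in all 6 libraries and 327 in no other genotype. Over the 973, the median scaled coverage, the reads of a bin after scaling, was 1982 and 1958 in intron-deletion cells, 1219 and 1392 in upstream-deletion cells, and 1106 and 1242 in WT cells (IL-2 and control). Over all 18580 bins listed in the 6 libraries the median lay between 1128 and 1147 in every library. Member anchors were thus bins of middling coverage in WT that stood higher in the intron deletion.

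Set against WT in the same treatment, the intron deletion had a median coverage of 1.55 times with IL-2 and 1.47 times in the control at the 973 anchors. With IL-2, 527 of them (54.2%) were above 1.5-fold, where 8.61% of all shared bins were, and in the control 463 (47.6%), where 6.95% were. Below 1/1.5 there were 2 and 1, where 7.46% and 5.29% of all shared bins were. Against the upstream deletion the median was 1.43 and 1.31 times, and 439 and 317 anchors were above 1.5-fold, where 7.03% and 4.57% of all shared bins were. The upstream deletion itself stood at 1.08 and 1.11 times WT at these anchors, with 17 and 31 above 1.5-fold, where 0.495% and 0.732% of all shared bins were. These folds belong to the contrast that chose the members and have no replicate, and nothing further is read from them. Of 693 members with both anchors listed in both WT libraries, 640 had both anchors above WT and 3 had both at or below it. Both anchors were above 1.5-fold in 324, a single anchor in 252 and neither in 117.

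**Figure D2:**
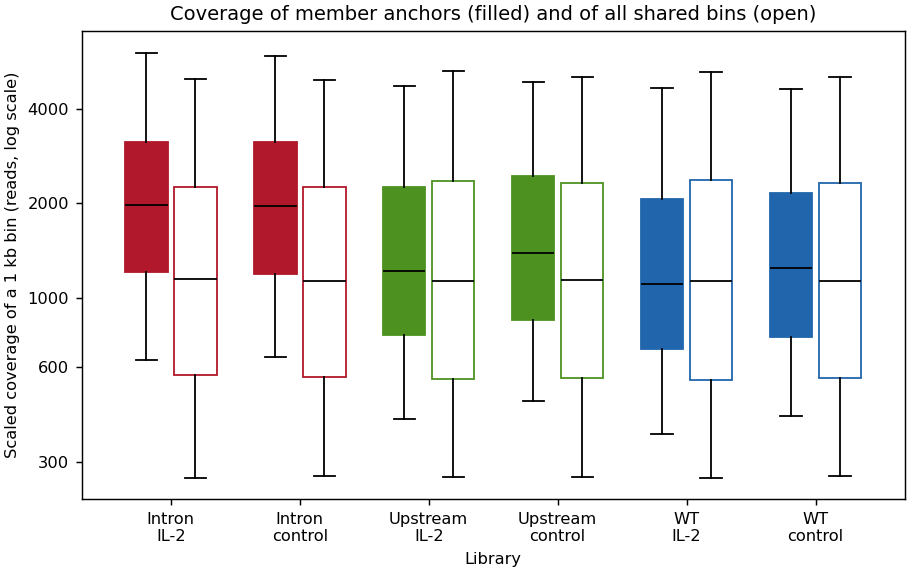
Scaled coverage of 1 kb bins in each library on a log axis, for the 973 member anchors listed in all 6 libraries (filled boxes) and for all 18580 such bins (open boxes); boxes give quartiles and medians, and whiskers the 5th and 95th percentiles. The filled medians are 1982 and 1958 for the intron deletion, against 1106 to 1392 in the other 4 libraries, while the open medians stay between 1128 and 1147.

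Fewer member anchors were promoters. A promoter lay in 8.95% of member anchors, against 14.7% of anchors of all loops of both intron-deletion libraries. A gene body without a gene end held 48.4% and 49.7%, and no protein-coding gene 39.0% and 30.8%. The anchor with the most members, 13, lay at chr1:88646001-88647000, between genes in the Arl4c locus, with scaled coverage of 3379 and 3136 in intron-deletion cells, 1179 and 1222 in upstream-deletion cells, and 830 and 792 in WT cells (IL-2 and control). Another, at chr16:32200001-32201000 and in no gene, had 12 members and coverage of 6658 and 6790, 2742 and 2918, and 1973 and 1981 in the same order. Coverage at both bins was highest in the intron-deletion libraries. The bins were picked for their number of members, so this is a description only.

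Many of the members lay close together. Members whose spans lay within 50 kb of each other formed 341 loci, of which 176 held 1 member and 69 held 5 or more, with 880 members among them. The 10 loci with the most members held 372 (28.6%), while 5.12% of all loops of both intron-deletion libraries lay in them. These loci were ranked by their members, so the larger share follows in part from the choice. The richest, with 63 members at chr15:60100001-60187000, holds no protein-coding gene and lies 83 kb after 4933412E24Rik and 632 kb before Lratd2. There the intron deletion listed 322 and 139 loops, the upstream deletion 63 and 62, and WT 71 and 40 (IL-2 and control). Its strongest member joined bins at 60124001 and 60129001 with 90 and 43 contacts. All 22 shared bins of this stretch had higher scaled coverage in the intron deletion than in WT in both treatments, at medians of 2049 and 1783, against 984 and 915 in WT. The 10 loci were chosen by their members, so counts of bins above WT in them are a description only. Over all shared bins the median log2 coverage of the intron deletion over WT was -0.03 with IL-2 and -0.02 in the control.

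The locus with the next most members, 54, is named for Bcl11b, but only 2 of them, the loops of 861 and 875 kb, touch that gene. The other 52 lay within chr12:107118001-107185000, a stretch of 67 kb that overlaps no protein-coding gene and ends 725 kb before Bcl11b. Median coverage of its 29 shared bins was 2181 and 2168 in intron-deletion cells, 1193 and 1118 in upstream-deletion cells, and 994 and 1077 in WT cells, and all 29 were above WT in both treatments. Over the whole 882 kb that the long loops span, Bcl11b included, 48 of 59 shared bins were above WT in each treatment, with medians of 1873 and 1922 in intron-deletion cells, 1298 and 1432 in upstream-deletion cells, and 1368 and 1604 in WT cells. The 54 members held 20 to 61 contacts with IL-2 and 20 to 37 in the control. The locus of Prkcq, which encodes a kinase of T cell receptor signalling, held 25 members, of which 23 had an anchor in the gene. The 25 were the only members within 500 kb of Il2ra. Median coverage of the 54 shared bins of the Prkcq locus was 2272 and 2012 in intron-deletion cells, 1807 and 1524 in upstream-deletion cells, and 1349 and 1162 in WT cells. All 54 were above WT in both treatments. The 25 held 20 to 44 contacts with IL-2 and 20 to 32 in the control, and 21 had a near pair listed in another library.

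Tcf7 encodes TCF1, a factor of naive and memory T cells, and its locus held 42 members. The number of listed loops there was 170 and 125 in intron-deletion cells, 18 and 69 in upstream-deletion cells, and 41 and 65 in WT cells (IL-2 and control). It was larger with IL-2 than in the control in the intron deletion alone, though its library with IL-2 also held 1.87 times as many loops in all. Scaled coverage of the 19 shared bins, which takes depth out, had medians of 1682 and 1821, 858 and 1302, and 833 and 1148 in the same order, lower with IL-2 in each genotype. Whether the IL-2 response differed between genotypes was not tested, since 1 library per group leaves no spread for it. The member at the Tcf7 promoter shown above joined it to the gene body 6 kb away with 21 and 20 contacts. This member had a near pair listed in all 4 other libraries.

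At Cd8b1 and Cd8a, the genes of the CD8 coreceptor, 38 members stood among 747 and 467 loops of the intron deletion, where the upstream deletion listed 384 and 353 and WT 548 and 409. Median coverage of the 58 shared bins was 2115 and 2030 in intron-deletion cells, 1352 and 1373 in upstream-deletion cells, and 1263 and 1267 in WT cells. The locus of Arl4c, a small GTPase gene, held 40 members, with the longest median span of the 10 loci, 53 kb. Most of these joined bins in no protein-coding gene, and the rest had an anchor in Arl4c. Coverage there was 2193 and 1950 in intron-deletion cells, 1010 and 841 in upstream-deletion cells, and 767 and 596 in WT cells, all 21 shared bins standing above WT. The Arl4c promoter, shown above, was joined to bins 56 and 118 kb away with 28 and 20, and 31 and 20, contacts. Each of these members had a near pair listed in all 4 other libraries.

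Il6st encodes gp130, the receptor subunit shared by cytokines of the IL-6 family, and its locus held 25 members. Some of these had an anchor in Il6st, and others joined bins in no protein-coding gene. Median coverage over the 18 shared bins of the locus was 1288 and 1289 in intron-deletion cells, 605 and 688 in upstream-deletion cells, and 539 and 642 in WT cells. The bin with the Il6st promoter shown above anchored 4 members, of 21 to 35 contacts with IL-2 and 22 to 26 in the control, and its own coverage was 4957 and 5429 in intron-deletion cells, 2853 and 3674 in upstream-deletion cells, and 2691 and 3620 in WT cells. The partners of that bin were weak, since each had under 600 reads of scaled coverage in the intron deletion and none was listed elsewhere.

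The locus of Tmie, Als2cl, Fam240a and Tdgf1 had the largest median of the per-bin log2 differences from WT among the 10 loci, 1.63 with IL-2 and 1.38 in the control, with 29 members and 1898 and 1917 reads in intron-deletion cells, 914 and 1028 in upstream-deletion cells, and 708 and 746 in WT cells. At Dusp10, a phosphatase gene of MAP kinases, 22 members lay among bins with 1764 and 1695, 959 and 1096, and 610 and 696 reads in the same order. Nup214, a nuclear pore gene, and Fam78a shared 34 members, with 1950 and 2112, 1082 and 1614, and 1054 and 1400 reads. In each of these 3 loci, which were chosen by their members, every shared bin stood above WT in both treatments.

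**Figure D3:**
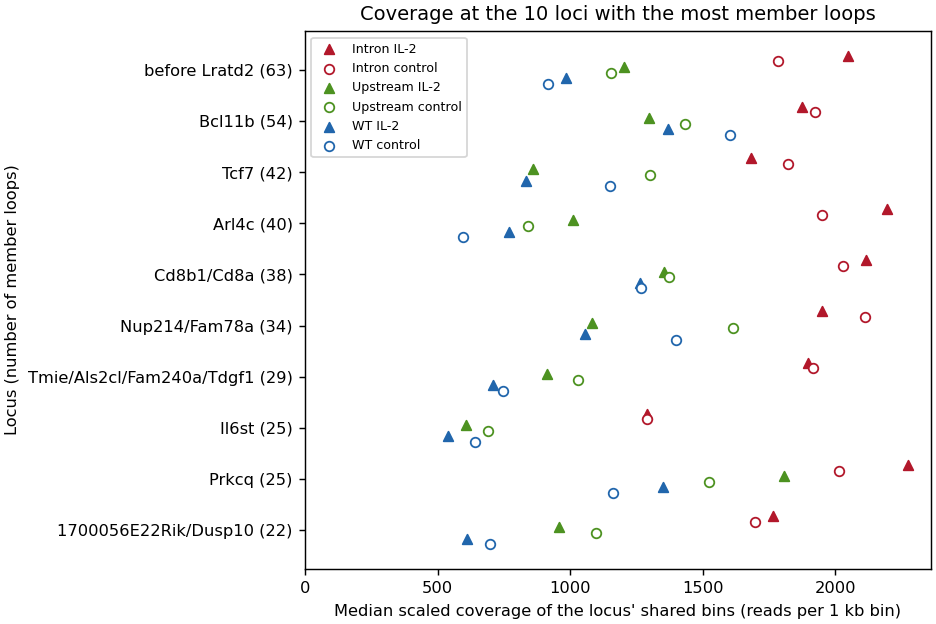
Median scaled coverage of the bins shared by all 6 libraries at each of the 10 loci with the most member loops, 1 symbol per library (triangles IL-2, open circles control), with the number of members in brackets. The intron-deletion symbols lie to the right of all others in each locus, with the smallest gap at Prkcq. The locus named for Bcl11b is drawn over its whole 882 kb.

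Several of the members with the most contacts joined copies of a gene. The strongest joined Art2b, which encodes an ADP-ribosyltransferase of the T cell surface, to its pseudogene copy Art2a 25 kb away (chr7:101559001-101560000 to chr7:101584001-101585000), with 155 contacts with IL-2 and 115 in the control. The Art2b bin was listed in all 6 libraries, with scaled coverage of 1560 and 1552 in intron-deletion cells, 2556 and 2984 in upstream-deletion cells, and 2302 and 2476 in WT cells. The Art2a bin, at 1046 and 1068 in the intron deletion, was not listed elsewhere. Coverage of the Art2b bin was thus lower in the intron deletion, against the direction of most members.

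Mfap1b and Mfap1a were joined by 116 and 62 contacts over 33 kb, and from the next bin, which holds the Mfap1b promoter shown above, by 57 and 53 (IL-2 and control). The first Mfap1b bin had coverage of 1352 and 1364 in intron-deletion cells, 1148 and 1233 in upstream-deletion cells, and 1199 and 1268 in WT cells. A bin at Gm7592 that also overlaps the pseudogene Gm2666 was joined to the end of Sp100, a nuclear body gene, by 126 and 52 contacts. Srp54a and Srp54b, copies of a gene for a signal recognition particle subunit, were joined by 98 and 60 contacts. Ifi206 and Ifi208, shown above, had 56 and 30. None of these had a pair within 1 bin listed in another library.

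Near-identical copies can share reads, so contacts between them are uncertain. Among all 121571 loops, 3917 had promoters of different genes at both anchors, and in 26 of them the promoters shared a word of 20 bases. The members had 11 such promoter pairs, of which 3 shared a word, those of Ifi206 and Ifi208, of Mfap1b and Mfap1a, and of 2700097O09Rik (with Srp54a) and Srp54b. In all loops of both intron-deletion libraries 14 of 1443 did, and in loops listed only in WT 2 of 187. Copies were not confined to the intron deletion: H2-Q6 and H2-Q7, MHC class I genes, were joined in all 6 libraries by 52 to 71 contacts. No source used here says how the authors' alignment placed such reads.

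Further members with many contacts lay elsewhere. Eps15l1, an endocytosis gene, had a member of 5 kb with 77 and 57 contacts, and its bin at chr8:72354001-72355000 had coverage of 3673 and 3412 in the intron deletion, 1163 in the upstream control and was not listed in the remaining libraries. The same bin was joined to the end of Klf2, a transcription factor gene of quiescent T cells, 33 kb away with 54 and 42 contacts. Neither end of the Klf2 loop was listed in WT. Cnp and Dnajc7, a co-chaperone gene, had a member with 61 and 49 contacts between anchors of 2518 and 2645, and 2201 and 2129, reads in the intron deletion, against 1040 and 1048, and 824 and 805, in WT (IL-2 and control). In the lncRNA gene Slc6a19os, members of 5 kb held 77 and 48, and 71 and 40, contacts.

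**Figure D4:**
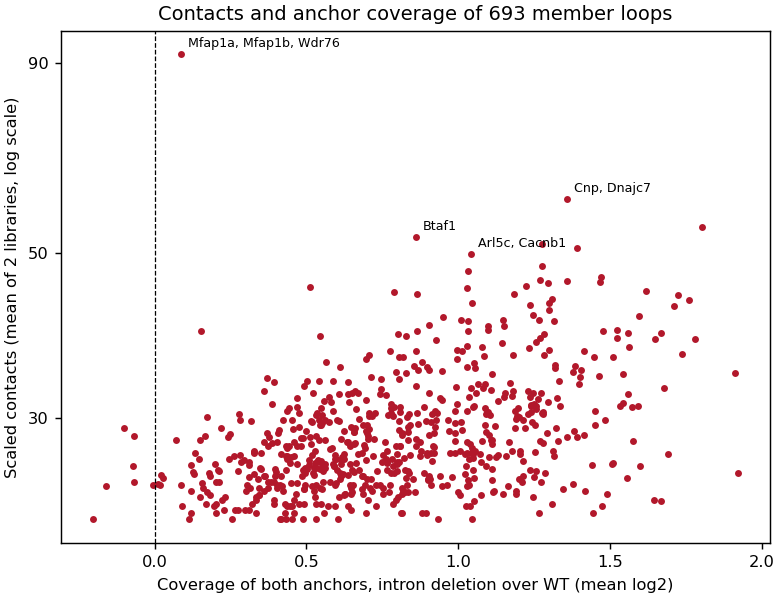
For 693 member loops whose anchors were both listed in both WT libraries, the mean log2 coverage of the anchors in the intron deletion over WT (x axis) and the scaled contacts, averaged over the intron-deletion libraries (y axis, log scale). Nearly all lie right of the dashed line at equal coverage, while the loop of Mfap1a and Mfap1b, with the most contacts, lies close to it.

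Gene lists were counted by the genes that lay over an anchor. Of 4566 protein-coding genes over an anchor of a loop of both intron-deletion libraries, 420 (9.20%) lay over a member anchor. Of T cell identity genes 11 of 25 did, of naive and memory genes 5 of 10, of NF-kB and AP-1 factors 4 of 17, of activation and checkpoint genes 2 of 19, of IL-2 and STAT5 targets 2 of 20, of cell cycle and growth genes 1 of 13 and of Il2ra locus genes 1 of 6. None of 6 cytotoxic effector genes and none of 7 housekeeping genes did, and none of the markers of CD4+ and regulatory T cells (1 at an anchor), B cells (1), myeloid cells (3) and erythroid cells (1). NK cell markers and sex-specific genes had none at an anchor. A gene with many loops has more chances of a member, so the loops themselves were also counted. At T cell identity genes 52 of 1549 loops were members (3.36%), and at naive and memory genes 17 of 662 (2.57%), neither above the 3.51% over all loops. At IL-2 and STAT5 targets 6 of 845 (0.710%) were members, at cytotoxic effector genes 0 of 172 and at housekeeping genes 0 of 149.

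**Figure D5:**
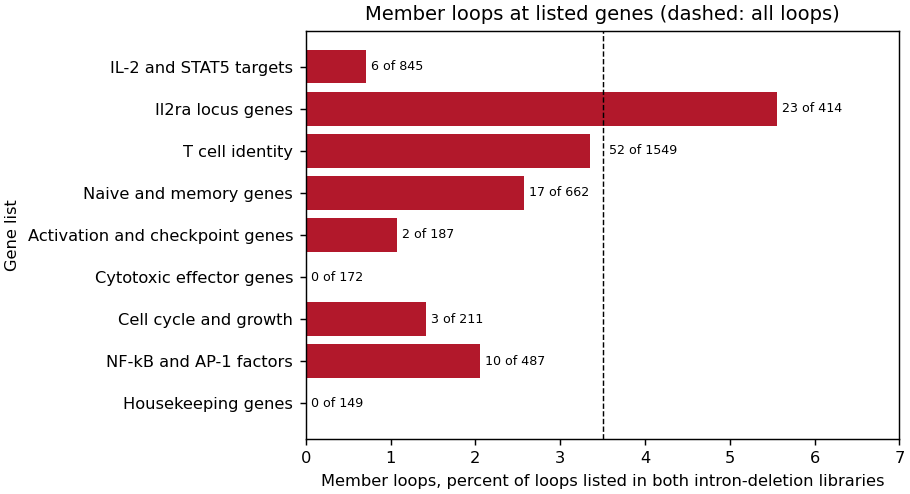
Member loops as a percent of the loops listed in both intron-deletion libraries, for gene lists with at least 100 such loops, with counts beside the bars and a dashed line at the 3.51% over all loops. Only the Il2ra locus genes, through Prkcq, lie right of the line. Of this list's loops listed in both WT libraries, 59 of 477 were listed only in WT, none of them at Prkcq.

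Within the lists the members sat at a few genes. Tcf7 had 13 members among 55 loops, Cd8a 12 of 103, Cd8b1 17 of 229 and Prkcq 23 of 392, while Ets1, a T cell transcription factor gene with 223 loops, had 3. Of the loops listed in both WT libraries, 8.36% were listed only in WT. At Tcf7 these were 0 of 29, at Cd8a 0 of 70 and at Prkcq 0 of 302. Over all Il2ra locus genes they were 59 of 477 (12.4%), so the rest of that list held WT-only loops and no member. At Cd8b1 they were 2 of 199 and at Ets1 13 of 316. Other listed genes with a member ranged more widely, such as Foxp1 with 35 of 369, Jun with 4 of 12 and Socs3 with 0 of 7. Except for Ets1, the genes named first were picked for their members, from the same listings, so their WT-only counts are a description only. S1pr1, the receptor that guides T cells out of lymphoid organs, had 7 members among 15 loops. They held 21 to 41 contacts with IL-2 and 20 to 26 in the control, and none had a near pair in another library. The S1pr1 bin at chr3:115711001-115712000 had scaled coverage of 3602 and 3672 in intron-deletion cells, 1820 and 2120 in upstream-deletion cells, and 1461 and 1673 in WT cells. Socs3, a feedback inhibitor of cytokine signalling, had 3 members among 10 loops, 2 of which led to Tha1, where the anchor had coverage of 4355 and 4162, 1877 and 1870, and 1915 and 1763 in the same order. Bach2, a repressor of effector genes, had 6 among 262 loops.

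Between treatments, members of the intron deletion held fewer scaled contacts with IL-2 than loops at large. The median ratio of IL-2 to control was 0.871 over the members and 0.982 over all loops of both libraries. Of the members, 22 (1.69%) were above 1.5-fold, where 3.05% of all loops were, and 133 (10.2%) were below 1/1.5, where 5.10% were. Each ratio compares single libraries. The listing limit was 17.2 scaled contacts with IL-2 and 24.4 in the control, and its part in this ratio was not tested.

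The effect of IL-2 was fitted with genotype as a covariate over the 6 libraries, on features listed in all of them. The rule used the listing in IL-2 and control libraries, whose scaled limits differ, so values at members are not independent of the choice and their counts are given as a description. By edgeR's quasi-likelihood test with Benjamini-Hochberg adjustment, 0 of the 973 member anchors rose and 0 fell with IL-2 in coverage, where 0.00% of all 18580 shared bins did in each direction. At an unadjusted p under 0.05, 109 were higher and 286 lower, where 19.1% and 17.5% of all bins were. DESeq2 called 36 higher and 128 lower, where 6.50% and 5.08% of all bins were. Without either intron-deletion library, which leaves its other library fitted alone, 582 member anchors were called, 147 up and 435 down, where 54.5% of all bins were called.

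Shared loops that have an anchor in common with a member numbered 3564. With IL-2, 26 of these rose (0.73%) and 44 fell (1.23%) by edgeR, where 2.56% and 0.731% of all 28033 shared loops did, and 68 of the 70 had the same sign in all 3 genotypes. DESeq2 called 0 (59 at an unadjusted p under 0.05), where 0.0107% and 0.00% of all loops were called up and down. Without any 1 upstream or WT library edgeR called 0 or 1, and without either intron-deletion library 173 or 174, where 6.50% or 6.51% of all loops were. The largest rise, chosen after the values were seen, was inside Bach2 (chr4:32255001-32256000 to chr4:32290001-32291000), with 58 and 23 contacts in intron-deletion cells, 47 and 24 in upstream-deletion cells, and 50 and 21 in WT cells (log2 0.92, SE 0.21, edgeR adjusted p = 0.0017). A loop between Il4ra, the IL-4 receptor gene, and a bin 57 kb away had 69 and 40, 70 and 36, and 91 and 32 contacts in the same order (log2 0.83, SE 0.18, edgeR adjusted p = 7.01e-04). Inside Il6st the loop from its promoter bin to a bin 6 kb away had 70 and 62, 29 and 53, and 24 and 47 contacts (log2 -0.72, SE 0.19, edgeR adjusted p = 0.0115). These contact counts are as deposited, before scaling, while the log2 values are scaled.

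Genes with an end at a member anchor gave 99 features whose summed contacts could be tested. By edgeR 1 rose (1.01%) and 7 fell (7.07%), where 2.13% and 1.85% of all 2489 features did. Those with a shift in the same direction in all 3 genotypes included Bysl, a gene of small ribosomal subunit assembly (log2 0.31, SE 0.07, adjusted p = 0.00936), Map1lc3b, an autophagy gene (log2 -0.50, SE 0.12, adjusted p = 0.0211), and Il6st (log2 -0.38, SE 0.09, adjusted p = 0.0269). Polr2e, a subunit of the RNA polymerases, fell by 0.33 on the log2 scale (SE 0.07, adjusted p = 0.00791). Pitpnm1, a lipid transfer gene, and Rad9a, a gene of the DNA damage checkpoint, fell by 0.33 and 0.26 on the log2 scale (edgeR adjusted p = 0.00553 and 0.0298). Another call, a fall at Dgka, a diacylglycerol kinase gene, did not have the same sign in all 3 genotypes.

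The contacts behind these sums were, for Il6st, 589 and 438 in intron-deletion cells, 250 and 308 in upstream-deletion cells, and 257 and 365 in WT cells (IL-2 and control, before scaling). Its log2 change was -0.08 in the intron deletion, -0.42 in the upstream deletion and -0.74 in WT. Map1lc3b had 184 and 147, 86 and 137, and 114 and 152 contacts in the same order, with changes of -0.18, -0.79 and -0.65. The difference between genotypes was not tested. DESeq2 called 0 of the 99 features (8 at an unadjusted p under 0.05), where 0.201% and 0.161% of all features were called up and down. Without any 1 upstream or WT library edgeR also called 0. Without the intron-deletion control it called 31, where 16.4% of all features were, and without the intron-deletion IL-2 library 25, where 13.1% were. Of the listed genes with an end at a member anchor, S1pr1 had a log2 change of -0.35 (adjusted p = 0.0539), Jun 0.30 (adjusted p = 0.461), Lat -0.10 (adjusted p = 0.381), Rel -0.05 (adjusted p = 0.864) and Ccnd3 0.00 (adjusted p = 0.988), and none passed.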

How the data were processed

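The 6 H3K27ac HiChIP tables were used, while 19 ChIP-seq samples were left aside. The submitters' processing notes name CASAVA, Bowtie2 2.2.6 and HiC-Pro, and the build mm10 (GRCm38). The deposited contact counts and the deposited coverage counts per 1 kb bin are whole numbers that the authors had not normalised, judging from the values. The file names call the libraries replicate 2, and the labels name no replicate, animal or culture. With 1 library per group, the residual spread behind the p-values is how far the IL-2 change differs between genotypes. It holds any such difference together with spread between libraries, which may be technical, and these cannot be told apart.

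Loops were matched exactly on both bins. Genes were taken from RefSeq on GRCm38.p6. IL-2 was tested with edgeR 4.0.16 (quasi-likelihood fit, TMM scaling, R 4.3.3), genotype and treatment additive, 2 residual degrees of freedom, Benjamini-Hochberg threshold 0.05 over all features. DESeq2 1.42.0, other scalings, a further minimum on the mean count, no genotype term and each library left out were alternatives. On simulated data with 200 features changed 1.5-fold, the edgeR test recovered 200 of the changed bins with 14 false calls, 52 of the loops with 2, and 158 of the gene ends with 9. The simulated data had no genotype effect and the same dispersion for every feature, unlike the real libraries. They therefore do not give the power of the test in the real data. Named members were the 10 with the most scaled contacts, those within 500 kb of Il2ra, those of the 10 loci with the most members and those at genes of 15 lists, and named IL-2 results were up to 10 rises and 10 falls with the same sign in all 3 genotypes; shared loops, long-range members and copies named outside this rule were chosen after their values were seen. Members and lists were chosen with earlier results of these data known. A gene that the naming rule picked is not reported here. Ratios of single libraries carry no replicate error.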

Additional observations from a re-analysis of the deposited data

How the results depend on the processing

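The 1299 members became 504 when a pair listed elsewhere within 1 bin removed them, 383 with a minimum of 25 contacts in both intron-deletion libraries, 2458 with tables of equal length and 1250 under 100 kb. Leaving out 1 library gave 1429 to 9594, the highest without the intron-deletion control, the library with the fewest loops. With scaling by the total contacts of each table, the median log2 coverage of member anchors in the intron deletion over WT was 0.825 with IL-2 and 1.01 in the control, in place of 0.63 and 0.56. Under that scaling the median over all shared bins stood at 0.16 and 0.43, against -0.03 and -0.02 in the reported one. It also raised the median ratio of member contacts to the limit of WT with IL-2 to 2.63, from 1.78. The cause was not tested.

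IL-2 calls at members changed with the tool and with single libraries. DESeq2 called 164 member anchors, 0 shared loops and 0 gene ends, where edgeR called 0, 70 and 8. Without a genotype term 0 loops and 0 gene ends passed. Leaving out 1 library gave 0 to 582 anchors, 0 to 174 loops and 0 to 31 gene ends. Scaling by median ratios and a further minimum on the mean count kept each count within 1.5 times. The 6 named genes kept their direction under every alternative that gave an adjusted p. No paired analysis was possible because each group is 1 library with no replicate number, beyond the genotype term, which sets IL-2 against control within each genotype. In the intron-deletion control 251 members held exactly the minimum of 20 contacts, and the part of depth was not tested.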
